A study of Mus musculus with 12 samples.

Results

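Ruxolitinib added to GSK-LSD1 was examined by setting the 3 libraries of cells given both drugs against the 3 libraries of cells given GSK-LSD1 alone, 6 of the 12 libraries of the series. Of 24411 genes in the deposited table, 11484 had a mean normalised count of at least 10 over the 12 libraries and were tested. The cells were bone marrow cells of BALB/c mice that express mutant CSF3R and mutant CEBPA from retroviruses and were grown in culture as leukaemia cells. Both mutant genes are present in every group, the vehicle controls included, so no group shows cells without the oncogenes. The 4 groups of 3 libraries were given the vehicle DMSO, ruxolitinib at 50 nM, GSK-LSD1 at 2 nM, or both inhibitors together at the same doses (the combination), and all were collected after 24 h. The labels number the libraries within a group but do not say whether they came from separate cultures or separate marrow donors, so p-values measure the spread between these libraries, which may be technical. The question is what blocking JAK1 and JAK2 adds when LSD1 is already inhibited.

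CSF3R is the receptor for granulocyte colony-stimulating factor, and it signals through JAK kinases that phosphorylate STAT3 and STAT5. Ruxolitinib inhibits JAK1 and JAK2. LSD1, encoded by Kdm1a, removes methyl groups from histone H3 lysine 4 and works with the repressors GFI1 and GFI1B to keep myeloid differentiation genes down; GSK-LSD1 inhibits it. C/EBP alpha and C/EBP epsilon drive the granulocyte programme, in which proteins of primary (azurophil) granules are made at the promyelocyte stage and those of secondary and tertiary granules later, at the myelocyte and metamyelocyte stages.

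Promoters of 3 genes that rose when ruxolitinib was added are shown because each holds a match to a motif of the factors this design bears on. They are read 5′ to 3′ on the strand of the gene, from RefSeq on GRCm38.p6, and stop before the annotated start of the gene. Capitals mark the match. The Ngp stretch (chr9:110419558-110419746, plus strand, 189 bases) holds the C/EBP motif TTGCNNAA, and the Chil3 stretch (chr3:106167565-106167814, minus strand, 250 bases) and the Ctsg stretch (chr14:56102575-56102824, minus strand, 250 bases) hold the STAT motif TTCNNNGAA.
Ngp: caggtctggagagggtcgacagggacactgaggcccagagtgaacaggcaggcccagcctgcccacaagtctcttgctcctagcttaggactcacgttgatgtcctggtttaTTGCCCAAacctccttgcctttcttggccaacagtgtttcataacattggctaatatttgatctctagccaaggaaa
Chil3: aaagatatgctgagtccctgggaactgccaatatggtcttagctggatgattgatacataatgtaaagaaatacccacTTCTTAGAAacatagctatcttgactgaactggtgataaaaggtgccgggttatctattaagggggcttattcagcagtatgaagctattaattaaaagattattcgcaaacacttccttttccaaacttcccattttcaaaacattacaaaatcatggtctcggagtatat
Ctsg: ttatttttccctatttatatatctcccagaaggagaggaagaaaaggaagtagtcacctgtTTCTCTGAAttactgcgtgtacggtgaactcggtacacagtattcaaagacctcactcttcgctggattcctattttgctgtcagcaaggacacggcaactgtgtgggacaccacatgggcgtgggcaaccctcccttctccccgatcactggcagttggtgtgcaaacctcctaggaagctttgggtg
A search on both strands of windows from 250 bases before to 50 bases after each RefSeq start found TTGCNNAA in 16.9% of 118 promoters of genes that rose, in 14.3% of 35 promoters of genes that fell, in 8.45% of 11249 promoters of genes tested and in 10.8% of all 32851 promoters. The motif TTCNNNGAA was in 7.63%, 11.4%, 7.14% and 8.3% of the same sets. The hypoxia response motif ACGTG was in 22%, 22.9%, 26.1% and 19.6% of them, and the sterol response motif TCACNCCAC in 0.847%, 2.86%, 1.17% and 1.24%. A promoter was found for 92 of the 121 genes that rose and 31 of the 40 that fell. Of the 10 promoters found for secondary and tertiary granule genes that rose, 4 held TTGCNNAA. Among them was that of Ltf, a gene tested through its level in the combination. The 3 matches in capitals overlap no match to another motif searched. Letter matches are a description of the sequence and were not tested.

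The libraries held between 8260995 and 8528400 reads on genes as far as the steps between values show. Combination replicate 3 stood apart: on the first principal component of the 6 libraries, which carried 36.1% of their variance, it lay at 22.76 and the other combination libraries at 0.862 and 1.335. Its difference from those 2 libraries followed the GC content of the transcripts across genes (Spearman rho 0.573), and in the ruxolitinib group replicate 2 stood apart in the same way (rho 0.43). Values without combination replicate 3 are therefore given beside many of the results, though not all. A value that stands alone may also have moved. Kdm1a, Jak1 and Jak2 did not pass the test (log2 fold changes -0.08, 0.04 and -0.05), and the inhibitors act on the proteins, so these mRNA levels do not check the labels. The myeloid gene Mpo was expressed in all 12 libraries. Csf3r and Cebpa were too, but every group carried retroviral copies of both, so their values do not check the identity of the cells. Of the marker lists for other lineages, some defining genes were listed at 0 in all 6 libraries: 4 of 19 erythroid genes (the globin genes Hba-a1, Hba-a2, Hbb-bs and Hbb-bt), 3 of 14 B cell genes (Pax5, Ms4a1 and Dntt), 4 of 20 T and NK cell genes (Cd4, Zap70, Ncr1 and Cd2) and 5 of 15 stromal and endothelial genes (Cxcl12, Cdh5, Kdr, Emcn and Vcam1). The ribosomal protein gene Rpl26 is also listed at 0, so a 0 in this table need not mean that a gene is silent. Other members were expressed. The summed normalised count was 53575 to 57383 in the GSK-LSD1 libraries and 50119 to 54296 in the combination libraries for T and NK cell genes, 4658 to 5092 and 4029 to 4751 for erythroid genes, and 4046 to 4320 and 4334 to 4381 for stromal and endothelial genes. It was 11479 to 11862 and 11882 to 12508 for megakaryocyte genes, 35459 to 36968 and 33396 to 36563 for mast cell, basophil and eosinophil genes, 341.4 to 372 and 374.9 to 409.6 for B cell genes, and 322.5 to 390.9 and 305.3 to 366 for dendritic cell genes.

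Adding ruxolitinib changed a small set of genes, with granule and neutrophil genes among the largest rises. Of the 11484 genes, 161 (1.40%) passed at a Benjamini-Hochberg adjusted p under 0.05 in limma, 121 of them higher (1.05%) and 40 lower (0.348%) in the combination than with GSK-LSD1 alone. The changes were modest. Log2 fold changes, taken on log2(normalised count + 1), had a median of 0.56 among the genes that rose and -0.42 among those that fell, against -0.01 over all genes, and a change of 2-fold or more was reached by 12 of the genes that rose and 3 of those that fell. In all 161 genes the 3 combination libraries did not overlap the 3 GSK-LSD1 libraries, which was true of 18.1% of all genes (8.81% higher and 9.33% lower). Without adjustment 1407 genes had a p under 0.05 (12.3%), and 46.5% of all genes were above 0. The counts without combination replicate 3 were 104 higher and 36 lower, and of the 161 genes 117 passed in that fit too. Leaving out GSK-LSD1 replicate 1, 2 or 3 left 97, 83 and 102 genes, so the total rests on each of those libraries. Of the 156 called genes with a usable symbol, 68 passed with any 1 of the 12 libraries left out, 58 higher and 10 lower.

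Secondary and tertiary granule genes rose most. Of the 20 genes listed, 14 were tested and 11 rose, against 1.05% of all genes tested, and none fell. The members of this and the other lists were chosen with earlier results of these data known. Such counts therefore describe the lists and are no independent support. Ltf and Olfm4 averaged under 10 in the other 9 libraries and were tested through their level in the combination, so they had to differ. Among the other 12, 9 rose and the median was 0.78. The median of the 14 was 0.92, beside -0.01 for all genes and 0.31 for the same 14 genes when ruxolitinib was given without GSK-LSD1. The 14 include Ltf and Olfm4, which favours the larger value with GSK-LSD1 present. The median of the other 12 with ruxolitinib alone is not given here. Without combination replicate 3, 9 of the 14 passed and the median of the 14 was 0.81. The summed normalised count of the list was 8946 to 9885 in the GSK-LSD1 libraries and 13147 to 14337 in the combination libraries. In these bulk cultures more cells of a type and more RNA per cell, or fewer cells and less RNA per cell, cannot be told apart.

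Ngp, which encodes neutrophilic granule protein and whose promoter with a C/EBP match is shown above, was at 39.96, 29.86 and 45.87 with GSK-LSD1 and at 111.1, 93.72 and 121.3 in the combination. Every combination library was above every GSK-LSD1 library, 2.80-fold on the fitted scale (log2 fold change 1.48 ± 0.20, SE, adjusted p 0.000138). Ngp also rose with ruxolitinib alone against DMSO (log2 1.13, adjusted p 0.00722). Its mean was 114.1 with ruxolitinib alone and 108.7 in the combination, so the combination did not exceed ruxolitinib alone. Lyz2, the lysozyme of neutrophils and macrophages (chr10:117277331-117282321, minus strand), was at 602.4, 525.5 and 568.4 with GSK-LSD1 and at 1117, 1127 and 1212 in the combination. Its level doubled with no overlap (2.04-fold, log2 1.03 ± 0.10, adjusted p 2.54e-06). Chil3, a chitinase-like protein of maturing granulocytes, was at 378.7, 373.2 and 363 and then at 778.6, 733.9 and 720. Its groups were narrow and far apart, and it had the smallest p of the lists' members (log2 1.00 ± 0.08, adjusted p 1.57e-07).

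Hp encodes haptoglobin, which is stored in neutrophil granules and binds free haemoglobin. It was at 346.7, 325.5 and 278.2 with GSK-LSD1 and at 658.6, 529.7 and 660.3 in the combination. The gap between the groups was wider than either group (log2 0.96 ± 0.11, adjusted p 3e-05). Cd177, a neutrophil surface glycoprotein, was at 143.9, 136.4 and 129.6 and then at 276.7, 246.6 and 311.3 (log2 1.02 ± 0.12, adjusted p 4.4e-05). Pglyrp1, a bactericidal peptidoglycan-binding protein, was at 129.9, 92.56 and 102.7 and then at 180.5, 175.6 and 248.6, with combination replicate 3 the highest (log2 0.89, and 0.73 without that library). Lcn2, the iron-siderophore-binding lipocalin, was at 639.4, 545.4 and 589.4 and then at 934.3, 881.9 and 1029 (log2 0.68 ± 0.11, adjusted p 0.00123). All of these passed with any 1 library left out.

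Ltf, Olfm4 and Padi4 also rose, with calls that depend on single libraries. Ltf, which encodes the iron-binding protein lactoferrin, had the largest log2 fold change of all genes tested (1.80 ± 0.40, adjusted p 0.0177) at a low level: 7.993, 4.977 and 2.992 with GSK-LSD1 and 15.87, 20.72 and 23.87 in the combination. It was lost when GSK-LSD1 replicate 2 (adjusted p 0.0823) or 3 (0.121) or combination replicate 2 (0.0772) or 3 (0.0816) was left out. Olfm4 (log2 1.40) was lost without GSK-LSD1 replicate 2 or 3 or combination replicate 1 or 2, at adjusted p up to 0.1. Padi4 (log2 0.51), the peptidylarginine deiminase of neutrophil chromatin, was lost without GSK-LSD1 replicate 2 or 3 or combination replicate 1 or 3, at up to 0.218. The tested list members that did not pass were Mmp9 (0.41), Slpi (0.16) and Adam8 (-0.21). Camp, Mmp25, Fcnb, Arg1, Retnlg and Orm1 averaged under 10 over the 12 libraries and were not tested. Camp, a secondary granule gene, was at 0, 0 and 0.9972 with GSK-LSD1 and at 0.9918, 0 and 0 in the combination.

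In the reported fit, Mmp8 was the one gene for which the effect of ruxolitinib differed between cells with and without GSK-LSD1 (1 of 11484 interaction terms, 0.00871%, with 534 or 4.65% at an unadjusted p under 0.05). Mmp8 encodes neutrophil collagenase and lies at chr9:7558456-7568485 on the plus strand. It was at 2252, 2018 and 1953 with DMSO and at 2040, 1991 and 1764 with ruxolitinib. With GSK-LSD1 it stood at 5016, 5192 and 6006, and in the combination at 8499, 7585 and 7974. Ruxolitinib alone left its libraries overlapping those of DMSO, while the combination libraries lay above all others. The log2 fold change was 0.57 ± 0.07 for ruxolitinib added to GSK-LSD1 (adjusted p 0.000113) and -0.10 for ruxolitinib alone (adjusted p 0.493). The difference of the 2 effects was 0.67 ± 0.10, with an adjusted p of 0.0236. That call was lost without DMSO replicate 1 or 2 (0.207 and 0.0858), ruxolitinib replicate 3 (0.126), GSK-LSD1 replicate 1 or 2 (0.115 and 0.199) or combination replicate 1 (0.115), and its adjusted p was 0.00874 without combination replicate 3. It was lost too with the replicate block (0.0783), with quantile normalisation (0.0557) and with no filter on low values (0.216). The interaction terms of Lyz2 (0.76, adjusted p 0.0793), Thbs1 (0.68, adjusted p 0.207), Lama5 (-0.47, adjusted p 0.207) and Hp (0.71, adjusted p 0.394) did not pass. Those of Lyz2 and Hp passed with GC content corrected (0.0381 and 0.039), with library weights (0.00299 and 0.0488) and without ruxolitinib replicate 2 and combination replicate 3 (0.0038 and 0.0324). Both passed with the replicate block and GC correction together (0.0242). Lyz2 passed too without DMSO replicate 3 (0.0223) or ruxolitinib replicate 2 (0.0261). Lama5 passed with library weights (0.0488) and without ruxolitinib replicate 1 (0.0232).

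**Figure D1:**
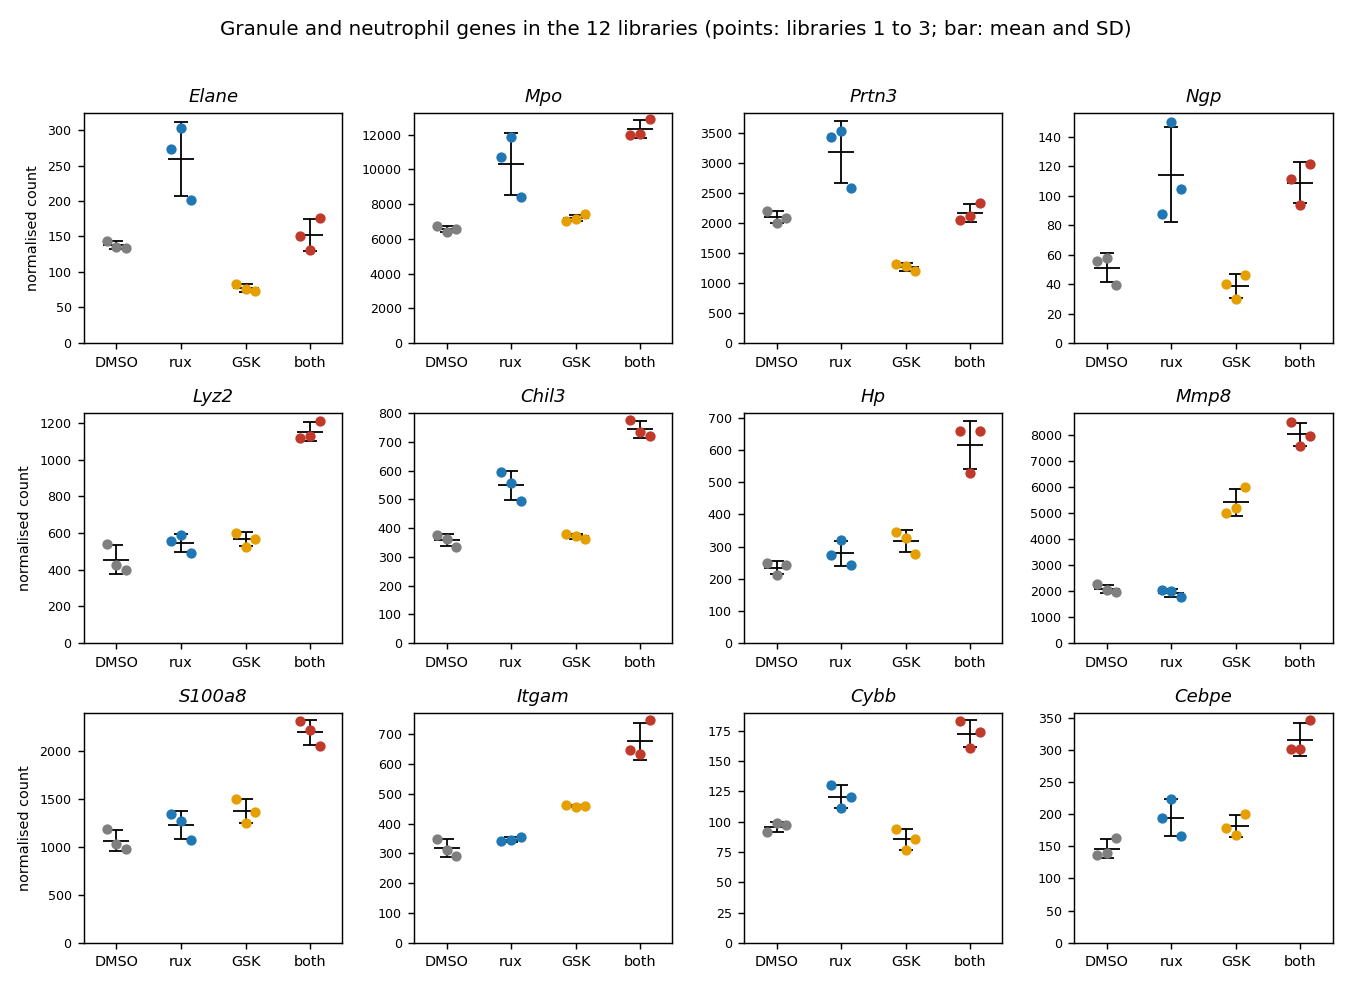
Normalised counts of 12 granule and neutrophil genes in the 12 libraries, by treatment (rux, ruxolitinib; GSK, GSK-LSD1; both, the combination). Points are libraries and bars are means with SD (n = 3), on linear axes from 0. In each panel the 3 combination libraries lie above the 3 GSK-LSD1 libraries, while Elane and Prtn3 are highest with ruxolitinib alone. The mean of Ngp is also highest with ruxolitinib alone (114.1, and 108.7 in the combination), with libraries that overlap.

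Primary granule genes rose in part. Of 12 tested, 6 rose and none fell, against 1.05% and 0.348% of all genes, with a median of 0.28, and 6 passed without combination replicate 3. The members that rose were myeloperoxidase and the serine proteases Elane, Prtn3, Ctsg and Prss57, with Ms4a3, a membrane protein of granulocyte-monocyte progenitors. The other 6, among them the protease-activating Ctsc (0.01) and the granule proteoglycan Srgn (0.01), had log2 fold changes from -0.04 to 0.06.

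Mpo makes hypochlorous acid from hydrogen peroxide and was the most abundant of the genes that rose here. It was at 7042, 7160 and 7402 with GSK-LSD1 and at 11974, 12041 and 12905 in the combination. The groups were far apart, 1.71-fold (log2 0.77 ± 0.08, adjusted p 2.15e-05). Elane, neutrophil elastase, was at 82.92, 76.64 and 72.8 and then at 150.8, 131.2 and 176 (log2 0.96 ± 0.14, adjusted p 0.000273). Its mean with DMSO was 137.6 ± 5.6 (SD, n = 3), so the GSK-LSD1 libraries lay below the DMSO libraries and the combination libraries spanned them. Prtn3, proteinase 3, was at 1312, 1284 and 1198 with GSK-LSD1 and at 2044, 2110 and 2334 in the combination, where the DMSO mean was 2097 ± 101 (SD, n = 3). Ctsg, cathepsin G, whose promoter with a STAT match is shown above, was at 599.5, 596.2 and 618.3 and then at 1003, 993.4 and 1053, where the DMSO mean was 974.8 ± 46.6 (SD, n = 3). Both proteases rose clear of the spread (log2 0.77 ± 0.09 and 0.75 ± 0.09, adjusted p 2.59e-05 and 8.11e-05). For these 3 proteases the combination mean was thus near the DMSO mean, and for Mpo it was above the DMSO mean of 6565 ± 169 (SD, n = 3). Prtn3 shares exon sequence with Plppr3, Mpo with Gm11505 and Prss57 with Fstl3, each on the opposite strand, and the strandedness of the counting is not given in the sources used here. Ms4a3 (log2 0.65, adjusted p 0.00714) was lost without GSK-LSD1 replicate 2, at an adjusted p of 0.0682.

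Genes of mature neutrophils followed. Of 24 tested, 8 rose and 1 fell, against 1.05% and 0.348% of all genes, with a median of 0.32 beside 0.13 for ruxolitinib alone, and 9 rose without combination replicate 3. The list's summed normalised count was 20043 to 21430 with GSK-LSD1 and 25050 to 26945 in the combination. S100a8 and S100a9 form calprotectin, the calcium- and zinc-binding protein of neutrophil cytosol. S100a8 was at 1499, 1249 and 1357 with GSK-LSD1 and at 2307, 2212 and 2048 in the combination. S100a9 was at 4137, 3695 and 4331 and then at 6871, 6113 and 6911. Both partners rose by a like amount (log2 0.68 ± 0.09 and 0.71 ± 0.10, adjusted p 8.11e-05 and 0.000282). Anxa1, an annexin that restrains neutrophil recruitment, went from 1507, 1567 and 1654 to 2784, 2597 and 2417 (log2 0.72 ± 0.08, adjusted p 2.15e-05). Combination replicate 3 was the lowest of the combination libraries for S100a8 and Anxa1, and their log2 fold changes were 0.73 and 0.77 without it. Itgam, the CD11b chain of the complement receptor, stood at 460.6, 455.8 and 459.7 and rose to 647.7, 631.4 and 746.9 (log2 0.55 ± 0.08, adjusted p 0.000363). Anxa3 (0.60) and the guanine deaminase gene Gda (0.43) rose as well and passed with any 1 library left out.

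Pygl, the liver-type glycogen phosphorylase (0.43), and Alox5ap, which presents arachidonate to 5-lipoxygenase (0.31), rose with less certainty. Pygl was lost without GSK-LSD1 replicate 3 (adjusted p 0.0974) or combination replicate 2 (0.0706), and Alox5ap without any GSK-LSD1 library or without combination replicate 2, at up to 0.119. The member that fell was the inhibitory receptor gene Lilrb4a (log2 fold change -0.44), which was lost without GSK-LSD1 replicate 1 (0.0577) or 2 (0.0657).

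The machinery by which phagocytes sense and kill microbes changed in single members. Cybb, the catalytic gp91phox subunit of the NADPH oxidase, was at 93.91, 76.64 and 85.76 with GSK-LSD1 and at 183.5, 160.8 and 174 in the combination. Its level doubled without overlap (2.01-fold, log2 1.01 ± 0.12, adjusted p 3.06e-05), and 2 of the 7 oxidase genes tested rose, against 1.05% of all genes. The other was Ncf1, the p47phox organiser (log2 0.39), which overlaps Gtf2ird2 on the opposite strand and was lost without GSK-LSD1 replicate 2 (adjusted p 0.0657). Cyba, the p22phox subunit (0.20), did not pass. Ltb4r1, the high-affinity leukotriene B4 receptor, was at 55.95, 46.78 and 56.84 and then at 100.2, 111.5 and 112.4. It and Cxcr4, the marrow-retention receptor (log2 0.35), were the 2 of 9 chemoattractant receptor genes that rose (Ltb4r1 log2 1.01 ± 0.14, adjusted p 0.000138). Cxcr4 was lost without GSK-LSD1 replicate 3 (adjusted p 0.0649).

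Cebpe was the one of 28 myeloid transcription factor genes that passed, against 1.40% of all genes tested. It encodes C/EBP epsilon, which drives secondary granule genes. Cebpe stood at 177.8, 167.2 and 200.4 with GSK-LSD1 and at 300.5, 300.9 and 346.1 in the combination, with no overlap (log2 0.79 ± 0.11, adjusted p 0.000322, and 0.73 without combination replicate 3). The endogenous and retroviral copies of Cebpa and Csf3r cannot be separated in these values, and neither gene passed (log2 fold changes 0.11 and 0.18). Csf3r was at 1618, 1658 and 1616 with GSK-LSD1 and at 1559, 1749 and 2300 in the combination, and its log2 fold change was 0.02 without combination replicate 3.

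Markers of monocytes and macrophages rose in 2 of 21 tested members, against 1.05% of all genes, and none fell. Psap, the precursor of the saposins that assist lysosomal lipid breakdown, was at 4339, 4316 and 4452 with GSK-LSD1 and at 5597, 5590 and 6163 in the combination (log2 0.40 ± 0.05, adjusted p 0.000138). Ly6c2, a surface antigen of monocytes and granulocyte precursors, went from 12.99, 14.93 and 13.96 to 45.62, 43.41 and 62.65, 3.41-fold (log2 1.77 ± 0.27, adjusted p 0.00062). Reads of Ly6c2 and its near-identical neighbour Ly6c1 (log2 1.39) may have been split between them. Csf1r (0.47), Cd14 (-0.04) and Adgre1 (0.26) did not pass. Among markers of other lineages 1 gene each passed in the lists of B cells (Cd22, log2 1.08, of 3 tested), megakaryocytes (Thbs1, log2 0.74, of 11) and mast cells and basophils (Il13, log2 fold change -1.18, of 18). Over all genes tested 1.40% passed. None of 13 erythroid, 8 T and NK cell and 3 stromal genes passed. Cd22, an inhibitory sialic acid receptor, was at 33.97, 36.83 and 31.91 and then at 71.41, 71.03 and 78.56, and Thbs1, thrombospondin 1, was at 946.1, 1113 and 1150 and then at 1895, 1610 and 1856. Il13, a type 2 cytokine, was lost without any single GSK-LSD1 library (adjusted p up to 0.0852) or without combination replicate 3 (0.0882). The part of other cell types in the results was not tested.

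Genes downstream of cytokine receptors moved down in few members. Of 26 listed STAT3 and STAT5 target genes, all tested, 3 fell (Il2ra, Il4ra and Osm), against 0.348% of all genes, none rose, and the median was -0.11. Without combination replicate 3, 4 fell and the median was -0.16. Il2ra, the alpha chain of the interleukin-2 receptor, was at 2262, 2321 and 2052 with GSK-LSD1 and at 1628, 1505 and 1474 in the combination. Every combination library was lower (log2 fold change -0.53 ± 0.09, adjusted p 0.00155). Il4ra, the shared chain of the interleukin-4 and interleukin-13 receptors, was at 5743, 6021 and 5523 and then at 4651, 4648 and 4405 (log2 fold change -0.33 ± 0.06, adjusted p 0.00212). Osm, which encodes the interleukin-6 family cytokine oncostatin M, was at 978.1, 1014 and 996.2 and then at 814.3, 770.4 and 771.7. Its libraries hardly varied within a group (log2 fold change -0.34 ± 0.06, adjusted p 0.00498). All 3 passed with any 1 library left out.

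The feedback inhibitors and kinases most often read as JAK-STAT output did not pass. Cish was at 184.8, 185.1 and 152.6 with GSK-LSD1 and at 136.9, 150.9 and 171.1 in the combination, and the groups overlapped (log2 fold change -0.19 ± 0.13, adjusted p 0.594). Socs2 was at 5610, 5066 and 5199 and then at 4576, 4689 and 4323, with every combination library lower, but its adjusted p was 0.0611 (log2 fold change -0.22 ± 0.06). It passed without ruxolitinib replicate 2 (0.0285). Socs3 (-0.09), the kinase gene Pim1 (0.02) and Myc (0.04) did not pass either, nor did Stat3 (0.00), Stat5a (0.04) and Stat5b (0.08). Of 21 genes of the JAK and STAT machinery 1 rose, against 1.05% of all genes. It was the phosphatase gene Ptpn6 (log2 0.28), which encodes SHP-1 and was lost without GSK-LSD1 replicate 1 (adjusted p 0.0577) or 2 (0.0631). Of 19 LSD1 complex genes none passed. Gfi1 (0.27) and Gfi1b (0.24), which encode its partner repressors, did not pass. Of 19 tested genes listed as repressed by LSD1 and GFI1, 3 rose (Lyz2, Cebpe and Itgam, each also in a list above), against 1.05% of all genes, and none fell. Their median was 0.24, and without combination replicate 3 there were 3 higher and 1 lower with a median of 0.18.

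Other genes that fell belong to no common list. Tnfrsf8, which encodes CD30, was at 138.9, 113.5 and 120.7 with GSK-LSD1 and at 70.42, 63.14 and 75.58 in the combination, the largest fall by the naming rule (log2 fold change -0.82 ± 0.13, adjusted p 0.000783). Ahr, the ligand-activated aryl hydrocarbon receptor, was at 1073, 1175 and 1108 and then at 878.8, 845.4 and 705.1 (log2 fold change -0.47 ± 0.08, and -0.37 without combination replicate 3). Lama5, a laminin chain, was at 1222, 1273 and 1230 and then at 943.2, 952.9 and 907 (log2 fold change -0.41 ± 0.07, adjusted p 0.00144), close to the DMSO values of 838.2, 894.2 and 822.9. Plxdc2 (-0.48) and the lysophosphatidylserine receptor gene Gpr174 (-0.48) fell as well, and these 5 passed with any 1 library left out. Etv4, an ETS factor induced by MAPK signalling, fell (-0.64) among 25 MAPK early and feedback genes of which no other passed. Over all genes 0.348% fell. Etv4 was lost without GSK-LSD1 replicate 1 (adjusted p 0.0668) or 2 (0.126) or combination replicate 1 (0.0987).

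**Figure D2:**
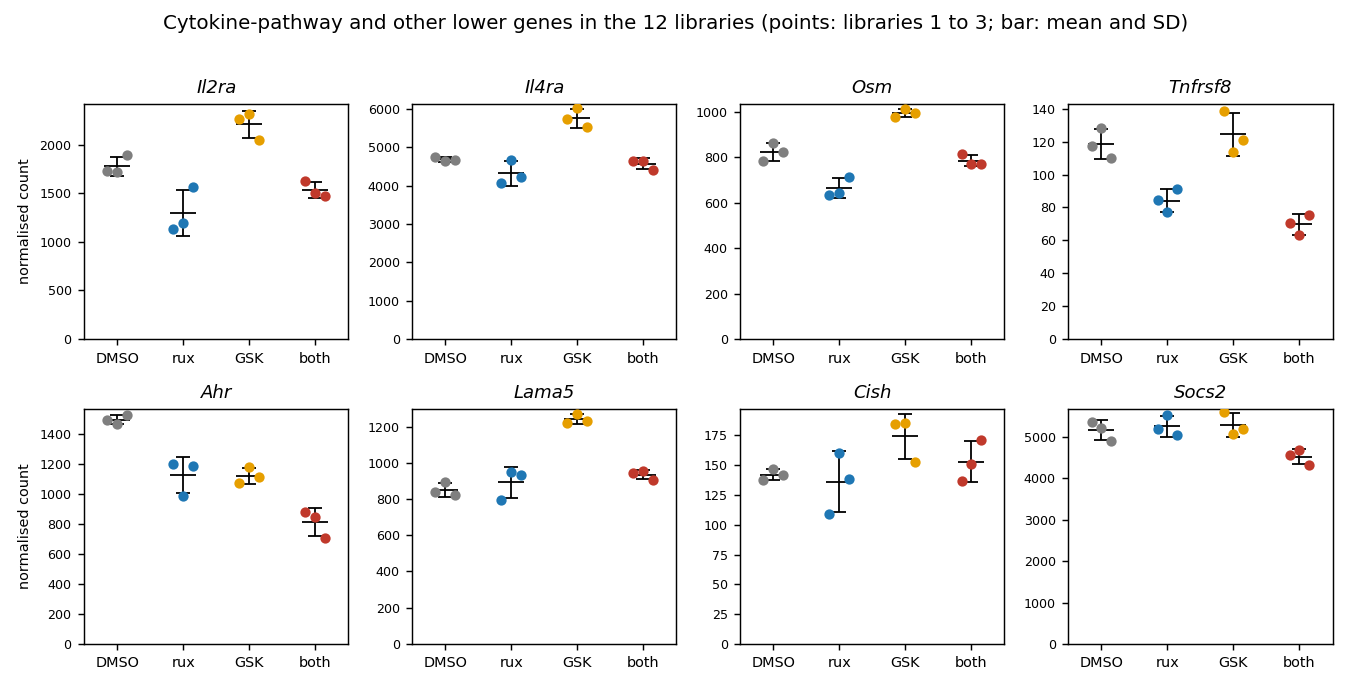
Normalised counts of 8 genes in the 12 libraries by treatment, drawn as points for libraries and bars for the mean with SD (n = 3). The combination libraries of Il2ra, Il4ra, Osm, Tnfrsf8, Ahr, Lama5 and Socs2 lie below the GSK-LSD1 libraries, and those of Cish overlap them.

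Growth and metabolism lists moved by small amounts. Over all genes tested 1.05% rose and 0.348% fell, and 6143 of the 11484 had log2 fold changes below 0. Summed normalised counts did not overlap between GSK-LSD1 and combination libraries for ribosome biogenesis and MYC targets (100612 to 103111 and 89850 to 96800). The same held for DNA replication (53685 to 54883 and 50062 to 51878), while those of mitosis genes overlapped (46530 to 47769 and 45296 to 47454). Heat shock (62690 to 63260 and 57401 to 60566) and cholesterol synthesis sums (25878 to 26465 and 24122 to 25125) were also lower without overlap. So were those of fatty acid synthesis, glycolysis and hypoxia, G1 cyclin and CDK, and amino acid stress genes. Of 16 heat shock genes 15 were below 0, and of 17 fatty acid synthesis genes 15. Of 36 genes of ribosome biogenesis and MYC targets 33 had log2 fold changes below 0, with a median of -0.13, but 1 passed, Dkc1 (log2 fold change -0.23), a ribosome and telomerase factor. Dkc1 was lost without DMSO replicate 2 or 3, any GSK-LSD1 library or combination replicate 1 or 3, at adjusted p up to 0.156, and with GC content corrected 7 of the 36 fell, where falls over all genes went from 40 to 105. Of 36 DNA replication genes 34 were below 0 (median -0.07) and none passed, and none of 30 mitosis genes did (median -0.00). Of 33 glycolysis and hypoxia genes 1 rose and 1 fell, with a median of -0.11 beside -0.21 for ruxolitinib alone, and with GC content corrected 6 fell, from the same wider set of 105. The one that fell was Slc16a1, a lactate transporter (-0.35), lost without GSK-LSD1 replicate 1 (0.0559) or 3 (0.0644), and the one that rose was Mxi1, a MAX-binding repressor (0.36), lost without DMSO replicate 3, any GSK-LSD1 library or combination replicate 1 or 2, at up to 0.182. In fatty acid synthesis the desaturase Scd1 fell (-0.47) and the acetyl-CoA synthetase Acss2 rose (0.55). Scd1 was lost without GSK-LSD1 replicate 1 or 2 or combination replicate 1 or 2, at up to 0.2, and Acss2 without GSK-LSD1 replicate 1 or 3 or combination replicate 3, at up to 0.118. In the stem and progenitor list 3 of 19 rose, the granule genes Prtn3 and Ms4a3 described above and Cd34, a progenitor surface marker (0.37), and Mycn fell (-0.35). Cd34 was lost without any GSK-LSD1 library or combination replicate 1 or 2, at adjusted p up to 0.184, and Mycn without GSK-LSD1 replicate 1 or 2 or combination replicate 1 or 2, at up to 0.0979. None of 25 cholesterol synthesis, 34 interferon-stimulated, 18 NF-kB, 14 BCL2 family, 16 heat shock, 19 G1 cyclin and CDK, 5 dendritic cell or 70 ribosomal protein genes passed. In the adhesion, lysosome, cytokine receptor and amino acid stress lists the members not yet named were the integrin Itgb2 (0.26, 2 of 13 adhesion genes rose), the lysosomal mannosidase Man2b1 (0.21, 2 of 32 rose), the interleukin-6 receptor Il6ra (0.53, 1 of 22 cytokine receptors rose and 2 fell) and the cystine transporter Slc7a11 (-0.46, 1 of 32 amino acid and unfolded protein stress genes fell). Itgb2 and Man2b1 were each lost without any 1 DMSO, GSK-LSD1 or combination library (adjusted p up to 0.244 and 0.156). Il6ra was lost without any GSK-LSD1 library or combination replicate 1 or 2 (up to 0.176), and Slc7a11 without DMSO replicate 2, GSK-LSD1 replicate 1 or 2 or combination replicate 2 or 3 (up to 0.294).

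**Figure D3:**
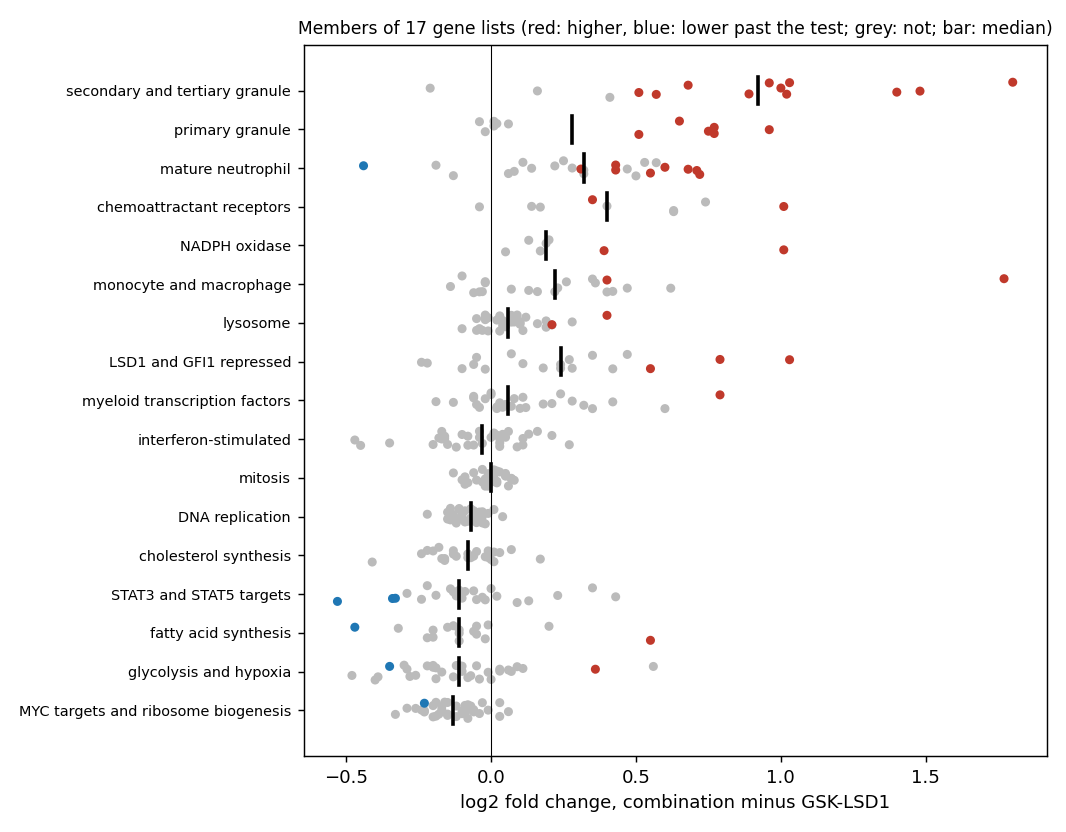
Log2 fold changes, combination minus GSK-LSD1, of the tested members of 17 gene lists. Red and blue points passed higher and lower, grey points did not, and black bars are list medians. The bar lies at 0.92 for secondary and tertiary granule genes and at -0.13 for MYC targets and ribosome biogenesis. The first is 0.78 without Ltf and Olfm4, which were tested through their level in the combination.

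The same drug was given to cells without GSK-LSD1. The means of the comparison above come from none of these libraries, but all 12 share 1 estimate of the spread, so the calls of the comparisons are not independent. Ruxolitinib against DMSO changed 187 genes (1.63%), 115 higher and 72 lower. That count moved with single libraries: it was 58, 69 and 32 without DMSO replicate 1, 2 or 3, 41 without ruxolitinib replicate 2, 121 and 117 without GSK-LSD1 replicate 2 or 3, and 551 without combination replicate 3. Of the 121 genes that rose with ruxolitinib on top of GSK-LSD1, 119 were above 0 with ruxolitinib alone (49.7% of all genes were) and 36 rose past the test, which is 29.8% of the 121 and 31.3% of the 115, against 1.00% of all genes. Of the 40 that fell, 37 were below 0 and 8 fell past the test, which is 20% of the 40 and 11.1% of the 72, against 0.627%. None passed in the opposite direction.

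For the genes chosen as changed with GSK-LSD1 present, the size was larger there than without it in 113 of 121 and 39 of 40. Their medians were 0.56 and 0.30 among the risers and -0.42 and -0.24 among the fallers. The choice of genes by one comparison favours larger sizes in it, and the interaction term passed for Mmp8 alone in the reported fit, so no other difference in size is shown by it. Across the 11484 genes, which are not independent replicates, Pearson's r between the 2 sets of log2 fold changes was 0.387. It was 0.304 without ruxolitinib replicate 2 and combination replicate 3, which share the GC-related deviation.

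Named genes show how the effects line up. Mpo rose with ruxolitinib alone (log2 0.64, adjusted p 0.000541) and on top of GSK-LSD1 (0.77). Elane (0.89, adjusted p 0.00251) and Chil3 (0.61, adjusted p 0.000454) did so too. Il2ra fell in both settings (-0.47 alone, adjusted p 0.00874), as did Osm (-0.31 alone, adjusted p 0.0165), Gpr174 (-0.47 alone, adjusted p 0.00874) and Ahr (-0.42 alone, adjusted p 0.0112). With ruxolitinib alone the rises of Mpo, Elane and Chil3 passed with any 1 library left out. The falls did not: Il2ra was lost without DMSO replicate 3 (0.0727), Osm without DMSO replicate 2 or 3 or ruxolitinib replicate 1 or 2 (up to 0.094), Gpr174 without DMSO replicate 2 or ruxolitinib replicate 2 (up to 0.0533), and Ahr without DMSO replicate 1 or 3 or ruxolitinib replicate 2 (up to 0.0722). Lyz2 (0.27, adjusted p 0.147), Hp (0.25, adjusted p 0.255) and S100a8 (0.20, adjusted p 0.222) had smaller values with ruxolitinib alone that did not pass. Thbs1 and Cd22 were at 0.07 and 0.03. These contrasts between passing and not passing were tested by the interaction term, which none of the 5 genes passed. The settings under which Lyz2 and Hp did are given above, and S100a8 passed with library weights (0.53, adjusted p 0.0488).

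**Figure D4:**
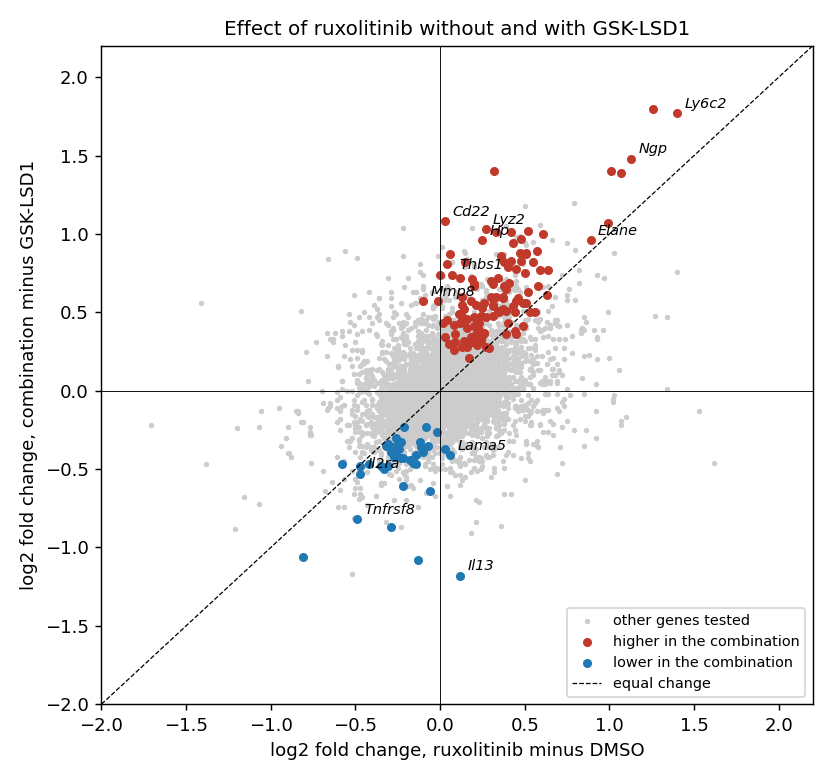
Log2 fold change of each tested gene for ruxolitinib minus DMSO (horizontal) and combination minus GSK-LSD1 (vertical), with 1 gene outside the axes. Red and blue points are the 121 and 40 genes that passed on the vertical axis and the dashed line marks equal change. Most coloured points lie on the same side of 0 on both axes, and Mmp8 lies left of 0 with ruxolitinib alone.

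The GSK-LSD1 libraries also serve the comparison of GSK-LSD1 with DMSO, so its values are given side by side only (3728 genes, or 32.5%, passed there). The log2 fold changes of GSK-LSD1 against DMSO and of ruxolitinib on top were 1.38 and 0.57 for Mmp8, 0.53 and 0.55 for Itgam, and 0.69 and 0.40 for Psap, where each step raised the level (ruxolitinib alone did not raise Mmp8). They were -0.82 and 0.96 for Elane, -0.73 and 0.77 for Prtn3 and -0.69 and 0.75 for Ctsg, where the values had opposite signs. They were 0.31 and -0.53 for Il2ra, 0.27 and -0.34 for Osm and 0.54 and -0.41 for Lama5, whereas Ahr fell in each step (-0.42 and -0.47).

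**Figure D5:**
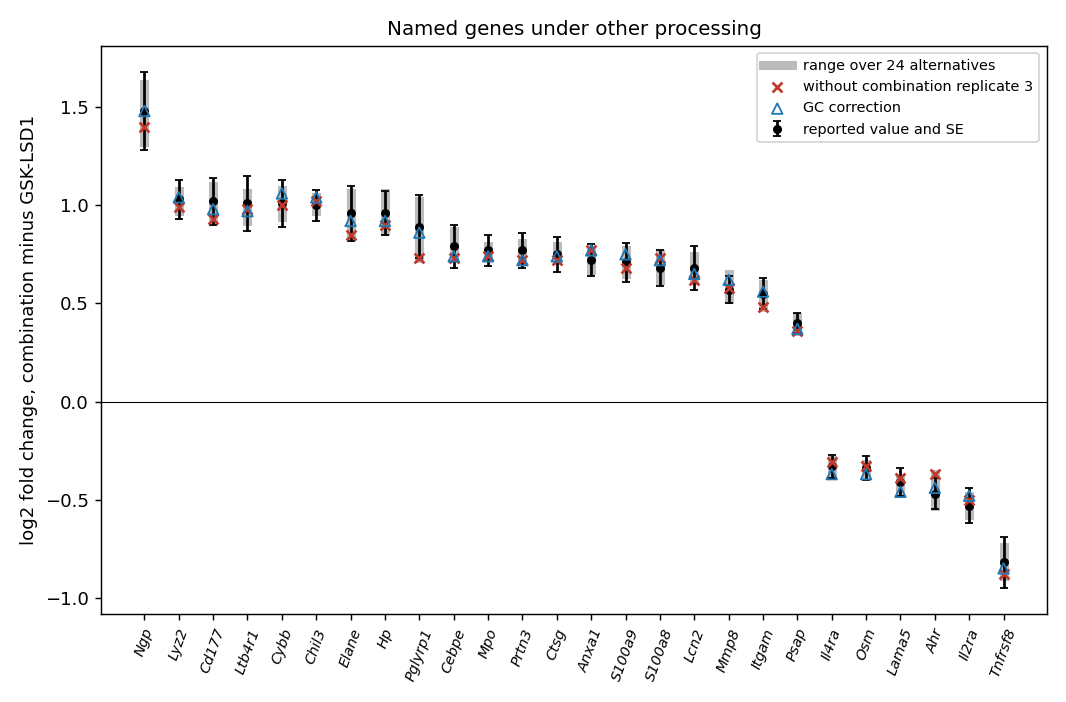
Log2 fold changes, combination minus GSK-LSD1, of 26 named genes. Black points with bars are the reported values and SE, grey bars the range over the 24 alternatives in processing, crosses the values without combination replicate 3 and triangles those with GC content corrected. No gene shown changes direction, and Pglyrp1 has 0.73 without combination replicate 3 against 0.89 with it.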

How the data were processed

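RNA sequencing gave 12 libraries of mouse leukaemia cells, 3 in each of 4 treatments. The authors deposited 1 table of normalised counts per gene, used here as a signal per library. Per the submitters' processing notes the tools STAR and DESeq2 and the builds mm10 and GRCm38 were used. The annotation, counter and strandedness are not given in the sources used here.

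Each value carries an added constant of 1e-05, which was taken off. After that, the values of a library were whole multiples of 1 step within 0.01, and the number of steps gave the depth, between 8260995 and 8528400. The table's values are scaled, so the main test was limma 3.58.1 (R 4.3.3) with a variance trend on log2(value + 1), fitted to all 12 libraries with a mean per treatment and 8 residual degrees of freedom. Genes needed a mean of at least 10 over the 12 libraries. P-values were two-sided and adjusted by Benjamini-Hochberg over 11484 genes, with 0.05 as the threshold. The script was tested on simulated data, with an outcome not given here. Those data were drawn without a GC-related deviation of single libraries, so that test does not cover it.

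Gene coordinates and exon overlaps came from GENCODE vM21 on GRCm38, matched by symbol, and promoters from RefSeq. Symbols written as dates (27) or repeated (2) were not named. Genes were named as the 12 that rose most and the 12 that fell most among called genes whose groups did not overlap and whose higher group averaged 100 or more, the 3 members of each of 36 lists with the smallest p, 15 genes of prior interest, and the 5 smallest interaction p-values. Other list members that passed were named after their values were seen. The members and lists were chosen with earlier results of these data known. Alternatives were other pseudocounts, filters and scalings, a GC correction, a replicate block, library weights, the 6 libraries alone, and leaving out each library.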

Additional observations from a re-analysis of the deposited data

Results flagged for a closer look

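Mmp8 differed between cells with and without GSK-LSD1 in its response to ruxolitinib, by the test of the interaction in the reported fit. The difference of the 2 log2 fold changes was 0.67 ± 0.10 (SE, adjusted p 0.0236, limma), from -0.10 without GSK-LSD1 to 0.57 with it. All 3 combination libraries lay above all 3 GSK-LSD1 libraries, as for 8.81% of all genes. That bears on the effect with GSK-LSD1 present, not on the difference. Over the alternatives the adjusted p of the difference ran from 0.000253, without ruxolitinib replicate 2 and combination replicate 3, to 0.216, with no filter on low values. The call was lost without DMSO replicate 1 or 2, ruxolitinib replicate 3, GSK-LSD1 replicate 1 or 2, or combination replicate 1. It was lost too with the replicate block and with quantile normalisation.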

How the results depend on the processing

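Among 140 named genes and 24 alternatives, no log2 fold change of the combination against GSK-LSD1 that passed the test changed sign (values near 0 that did not pass, such as those of Myc and Jak2, did), 149 values lost their call and 71 gained one. The 161 genes of that comparison became 284 with a GC correction (179 higher, 105 lower), 427 with library weights (244 higher, 183 lower), and 270 without ruxolitinib replicate 2 and combination replicate 3 together (160 higher, 110 lower), and the split between higher and lower moved in all 3. Leaving out 1 library gave 83 to 226 genes. With pseudocounts of 0.25 and 5 there were 159 and 166, with no filter 122, and with TMM scaling 163. The interaction count was 0 with no filter and with quantile normalisation, 3 with the GC correction, 5 with library weights, 3 without the 2 libraries named above, and 0 to 2 with 1 library left out. Ruxolitinib against DMSO gave 98 genes with no filter, 288 with the GC correction (142 higher, 146 lower, from 115 and 72), 300 with library weights, 317 without those 2 libraries (149 higher, 168 lower), 82 with the 6 libraries of that contrast alone, and 32 to 551 with 1 library left out. The labels do not say whether the replicate numbers pair the samples. Deviations of same-numbered GSK-LSD1 and combination libraries from their group means correlated at -0.148, 0.0786 and -0.107. With 3 libraries per group and the GC-related deviation of combination replicate 3, these values cannot settle it. With the replicate block the counts were 139 for the combination against GSK-LSD1, 0 for the interaction and 112 for ruxolitinib, and with the replicate block and GC correction together 245 (157 higher, 88 lower), 5 and 230 (118 higher, 112 lower). A count test with edgeR on recovered reads, planned as an alternative, was not run: the deposited values are whole multiples of a step only once the added constant is taken off, and no count test was made on those steps. The cause of these changes was not tested. The GC content of transcripts followed the log2 fold change of the combination against GSK-LSD1 across 11053 genes (Spearman rho 0.26). Depth limits low genes: the SE of the log2 fold change was 0.40 for Ltf and 0.05 for Psap.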

Other observations

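Some genes outside the naming rule, chosen after their values were seen, rose when ruxolitinib was added to GSK-LSD1 and passed with any 1 library left out. Alox15, the 12/15-lipoxygenase, was at 622.4, 652.9 and 694.1 with GSK-LSD1 and at 1124, 952.9 and 1102 in the combination (log2 fold change 0.69, adjusted p 2.8e-05). Lta4h, which makes leukotriene B4, was at 1425, 1451 and 1400 and then at 1764, 1778 and 1957 (log2 0.36, adjusted p 0.00185).

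C3, the central complement component, was at 299.7, 280.7 and 286.2 and then at 422.5, 434.1 and 449.5, with narrow groups that did not overlap (log2 0.59, adjusted p 0.000912). Hvcn1, the proton channel that works beside the NADPH oxidase, rose by 0.57 on the log2 scale (adjusted p 0.00143) and overlaps Tctn1 on the opposite strand. Hk3, the hexokinase of myeloid cells, rose by 0.50 (adjusted p 0.00129) and overlaps Unc5a on the opposite strand. Sort1, Tifab and Fgd4, which the naming rule did choose, rose by 0.97, 0.88 and 0.87.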
